A study of Mus musculus with 20 samples.

Results

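The 8 genes described here encode surface proteins of natural killer (NK) cells and activated lymphocytes: Ly6c2, Cd2, Cd244, Cd160, Cd7, Amica1, Cdh1 and Styk1. They were looked up by their gene names in the count tables of all 20 single-cell libraries, which together list 25246 genes. Several of them had been selected on their measured rise in T-bet+ cells of these same data, so the levels and the steps between sorted populations are given as descriptions. The cells are intraepithelial lymphocyte precursors (IELPs) from mouse thymus, the agonist-selected thymocytes that give rise to natural TCRab+ intraepithelial lymphocytes of the gut.

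Every mouse carried TBGR, a reporter that turns on a green fluorescent protein with T-bet, the transcription factor encoded by Tbx21. The cells came from 3 mice, 1 per genotype: a TBGR mouse labelled wild type, aged 4 weeks, a TBGR C-myc fl/fl mouse with floxed C-myc alleles, aged 2 weeks, and a TBGR C-myc D/D Cd4 mouse, aged 2 weeks, in which Cre driven by Cd4 had deleted C-myc. For the C-myc genotypes the results of the paper speak of mice in the plural, aged 2 to 3 weeks. Thymocytes were depleted of CD4+ and CD8+ cells, sorted as TCRb+ cells and placed 1 per well by CD122 (the interleukin-2 receptor beta chain) and the reporter. The sorted populations were CD122-T-bet- cells, which lack both, CD122+T-bet- cells, which have CD122 alone, and the CD122+ cells with an intermediate reporter level (T-bet int) or a high one (T-bet high). The study's methods give an NK1.1- gate for these cells, whereas the description deposited with the series gives NK1.1+. The D/D Cd4 mouse was sorted for both T-bet- populations only. In the TBGR and D/D Cd4 mice each population had 2 libraries of 96 cells of its own, so that library and population cannot be told apart there. In the fl/fl mouse each of 8 libraries held 48 wells of each of 2 populations, either both T-bet- populations or both T-bet+ populations, which gives 4 libraries per population and ratios within a library.

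A cell was used if it held at least 2000 transcripts of genes other than mitochondrial genes and spike-ins, which 1413 of 1920 cells did. The median number of transcripts per cell was between 4238.5 and 7073.5 in the 10 groups of mouse and population. Levels are given as CPM, the transcripts of a gene per 1000000 transcripts of the summed cells of a library and population, of which there were 28 with 22 to 94 cells and 94268 to 775264 transcripts each. Since each genotype was 1 mouse, no test between conditions was possible, and no p-value is given. Intervals are exact 95% Poisson intervals of the summed transcripts or their ratios, which cover only the error of counting. The list of ab T-cell markers, which holds T-cell receptor and CD3 genes with Cd5, Thy1 and Lck, was at 4159.54 to 7816 CPM in sum in all 10 groups. Il2rb, which encodes CD122, was at 2.61 to 9.88 CPM in the CD122- groups and at 222 to 515 CPM in the CD122+ groups. Tbx21 was at 0 to 6.60 CPM in the T-bet- groups, at 48.0 and 18.8 CPM in T-bet int cells of the TBGR and fl/fl mice and at 165 and 60.03 CPM in their T-bet high cells. The TBGR T-bet high libraries were at 214 and 64.3 CPM and the fl/fl ones at 75.6, 55.1, 71.5 and 25.0 CPM, which overlap. Myc was at 73.8, 125, 135 and 10.6 CPM in the 4 fl/fl CD122+T-bet- libraries and at 44.5 and 9.96 CPM in the 2 D/D Cd4 ones, which overlap, and the tables do not show whether the counted 3' end lies in the deleted part. Klrb1c, which encodes NK1.1, was at 563 CPM in TBGR T-bet high cells, in 84.4% of these cells, and at 81.5 CPM in fl/fl T-bet high cells, in 24.1%. In the other groups Klrb1c was at 0 to 39.5 CPM.

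As background, NK cells and T cells of the gut epithelium read their neighbours through many surface receptors besides the T-cell receptor. CD2 and CD244 (2B4) are related receptors of the immunoglobulin family that bind CD48, and CD244, a member of the SLAM family, signals through the adaptors SAP and EAT-2. CD160 binds HVEM, the product of Tnfrsf14, and is expressed by intraepithelial lymphocytes and NK cells. CD7 is an immunoglobulin-family receptor of T and NK cells. Amica1 encodes JAML, an adhesion and costimulatory receptor for CAR on epithelial cells, and Cdh1 encodes E-cadherin, which binds itself on epithelial cells and the integrin CD103 (Itgae with Itgb7) and the receptor KLRG1. Ly6c2 encodes Ly-6C, a lipid-anchored surface protein of monocytes and of memory-type T cells, and Styk1 encodes NOK, a membrane-bound kinase-like protein.

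Genes in this assay are counted from their 3' ends, and Ly6c2 has a close copy in the genome. The promoters of Ly6c2 and of Ly6c1 are shown because the copies differ there, and those of Cd160 and Amica1 because the levels of these genes were the most alike of all pairs among the 8. Ly6c2, Ly6c1 and Cd160 have 2 entries each, of which the first listed is shown. Each sequence is the 250 bases before the start of transcription from RefSeq (GRCm38.p6), read on the strand of the gene. Capitals mark a T-box core (TCACAC, or GTGTGA on the other strand) or a Runx core (TGTGGT, or ACCACA).
Ly6c2, chr15:75111972-75112221, minus strand: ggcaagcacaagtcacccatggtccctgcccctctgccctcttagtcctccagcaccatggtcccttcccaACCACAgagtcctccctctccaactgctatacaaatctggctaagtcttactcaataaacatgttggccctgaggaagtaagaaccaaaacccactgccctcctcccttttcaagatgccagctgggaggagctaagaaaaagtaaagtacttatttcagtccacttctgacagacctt
Ly6c1, chr15:75048838-75049087, minus strand: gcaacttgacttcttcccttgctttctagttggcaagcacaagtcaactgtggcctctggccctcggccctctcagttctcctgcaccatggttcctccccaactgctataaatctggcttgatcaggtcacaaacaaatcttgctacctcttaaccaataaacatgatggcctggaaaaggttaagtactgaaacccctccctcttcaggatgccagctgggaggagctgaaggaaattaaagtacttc
Cd160, chr3:96829352-96829601, minus strand: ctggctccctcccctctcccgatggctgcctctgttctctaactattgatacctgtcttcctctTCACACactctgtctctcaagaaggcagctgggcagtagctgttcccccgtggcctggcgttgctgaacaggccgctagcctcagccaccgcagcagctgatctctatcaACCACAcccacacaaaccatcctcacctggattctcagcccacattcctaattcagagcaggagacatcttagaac
Amica1 (listed as Jaml), chr9:45078933-45079182, plus strand: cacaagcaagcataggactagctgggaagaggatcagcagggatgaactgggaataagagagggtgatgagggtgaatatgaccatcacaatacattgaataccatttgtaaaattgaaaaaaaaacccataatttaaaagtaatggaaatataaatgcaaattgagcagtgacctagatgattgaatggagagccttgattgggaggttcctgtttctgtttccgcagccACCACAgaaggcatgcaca

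The T-box core was found in 12.3% and the Runx core in 14.0% of 32851 mouse promoter windows of that length, so that a match is a description and not a binding site. The window of Ly6c2 held a Runx core that starts at base -179, that of Cd160 held a T-box core at base -186 and a Runx core at base -76, and that of Amica1 held a Runx core at base -19. The window of Ly6c1 held neither core, and its start was not that of a GENCODE transcript. In the windows not shown, that of Ly6c2 held a Runx core at base -213, that of Ly6c1, whose start is in GENCODE, a T-box core at base -111, and that of Cd160 a T-box core at base -188 and a Runx core at base -101. A window was at hand for 4 of the 8 genes, and the window of Cd244 (listed as Cd244a) held neither core. The upstream windows shown for Ly6c2 and Ly6c1, the most alike of their entries, were identical at 164 of 216 aligned bases (75.9%), with 68 bases in gaps. The last 500 bases of their transcripts were identical at 98.2% of the aligned bases, and 19.96% to 44.8% of 451 windows of 50 bases of Ly6c2 transcripts also occurred in Ly6c1. The copies lie 59327 bases apart on chromosome 15. Reads that mapped to several places were discarded, so that part of the reads of either gene may be missing. Ly6c1 had 52 transcripts in all passing cells against 2471 of Ly6c2. Of those of Ly6c1, 19 were in fl/fl CD122-T-bet- cells, where Ly6c2 had none, at 9.70, 65.1, 8.90 and 6.10 CPM by library, and 1 was in fl/fl CD122+T-bet- cells. Ly6c1 was also at 25.5 and 12.9 CPM in TBGR T-bet high libraries and at 10.3 and 2.88 CPM in TBGR CD122+T-bet- libraries.

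Ly6c2 lies on chromosome 15 (75108158 to 75111970, minus strand, GRCm38). In the TBGR mouse it was at 0 and 6.04 CPM in the CD122-T-bet- libraries, at 27.1 and 13.0 CPM in CD122+T-bet- libraries, at 156 and 262 CPM in T-bet int libraries and at 2266 and 1208 CPM in T-bet high libraries. No library of one population overlapped with the next. All 4 fl/fl CD122-T-bet- libraries were at 0, so that the level over the group may be as high as 3.70 CPM. The other fl/fl libraries were at 9.22, 26.7, 22.6 and 10.6 CPM in CD122+T-bet- cells, at 193, 77.0, 87.1 and 69.6 CPM in T-bet int cells and at 1421, 747, 479 and 1151 CPM in T-bet high cells. These populations did not overlap either, and T-bet high exceeded T-bet int within each of the 4 shared libraries, by 2.42 to 3.99 on the log2 scale.

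**Figure D1:**
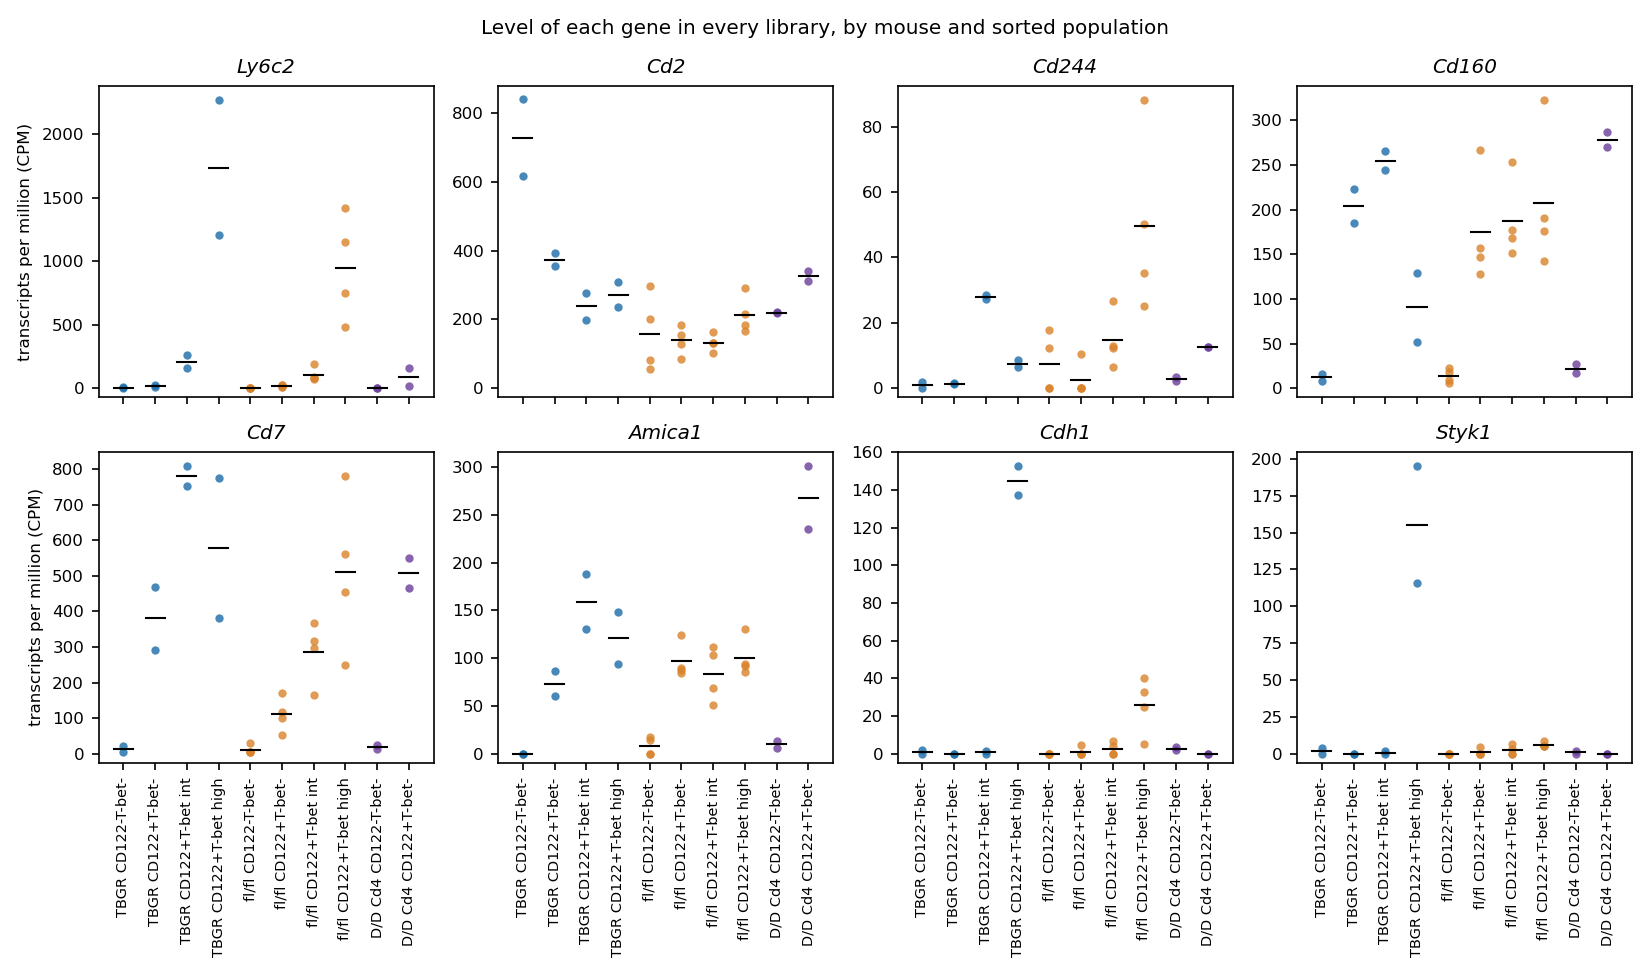
Level of each gene (CPM, linear axes that differ between panels) in every library, with 1 point per library and population and a bar at the mean of the libraries, for the TBGR (blue), fl/fl (orange) and D/D Cd4 (purple) mice. Ly6c2 was highest in T-bet high cells, where the 6 libraries lay between 479 and 2266 CPM, and Cdh1 and Styk1 stood above 100 CPM in the 2 TBGR T-bet high libraries alone.

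At the level of cells the 2 mice differed in how Ly6c2 was spread. In TBGR T-bet high cells the median was 7 transcripts per cell, 11 of 147 cells had none and the highest cell had 36. In fl/fl T-bet high cells the median was 1 transcript, 44 of 112 cells had none and the highest cell had 80. The 10 cells with the most Ly6c2 held 22.3% of its transcripts in the TBGR group and 52.6% in the fl/fl group. When every cell was thinned to 2000 transcripts, Ly6c2 was found in 88.4% of TBGR and 49.1% of fl/fl T-bet high cells, against 25.7% and 7.8% of T-bet int cells and 1.1% and 0% of CD122-T-bet- cells. By library the T-bet int shares were 14.9% and 36.9% in the TBGR mouse and 16.7%, 3.0%, 3.8% and 7.4% in the fl/fl mouse. The median depths of the T-bet high groups before thinning were 4309 and 5935.5 transcripts.

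**Figure D2:**
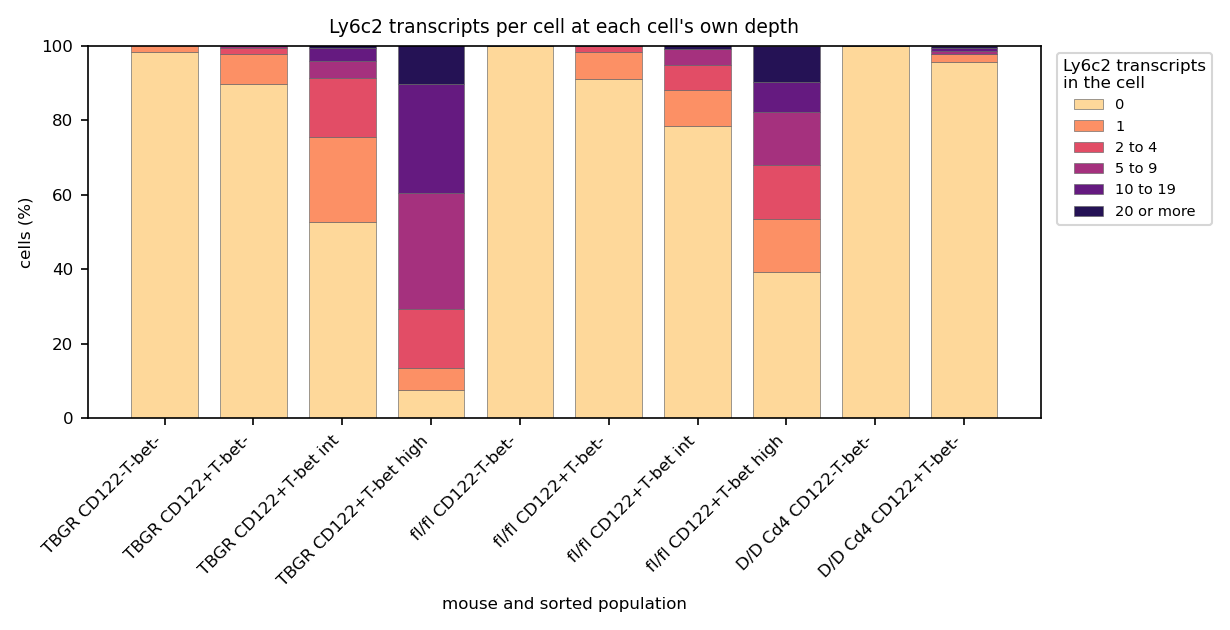
Share of cells (%, from 0 to 100) with 0, 1, 2 to 4, 5 to 9, 10 to 19 or 20 and more Ly6c2 transcripts in each mouse and sorted population, at each cell's own depth. TBGR T-bet high cells mostly held 5 or more transcripts, whereas 39.3% of fl/fl T-bet high cells held none and 9.82% held 20 or more.

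Of the genes for receptors of CD48, Cd2 (chromosome 3, 101275899 to 101287939, minus strand) was highest in TBGR CD122-T-bet- cells. It was at 839 and 616 CPM in TBGR CD122-T-bet- libraries, at 356 and 392 CPM in CD122+T-bet- libraries, at 198 and 277 CPM in T-bet int libraries and at 308 and 236 CPM in T-bet high libraries. The CD122-T-bet- libraries were thus above all other TBGR libraries, and the last 2 populations overlapped. The fl/fl levels of Cd2 were 82.4, 298, 200 and 54.9 CPM in CD122-T-bet- cells and 129, 156, 185 and 84.9 CPM in CD122+T-bet- cells. It was at 163, 131, 131 and 101 CPM in fl/fl T-bet int cells and at 217, 291, 165 and 184 CPM in T-bet high cells. The first 3 fl/fl populations overlapped, and within the shared libraries T-bet high exceeded T-bet int in 4 of 4. At equal depth Cd2 was found in 69.5%, 51.6%, 31.6% and 35.4% of the cells of the TBGR populations in that order, and in 23.0% to 31.2% of the cells of the fl/fl populations.

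Cd244 (chromosome 1, 171559193 to 171609746, plus strand) was a rare transcript, with 112 counted in all passing cells. In the TBGR mouse it was at 0 and 2.01 CPM, 1.29 and 1.44 CPM, 27.3 and 28.5 CPM and 6.36 and 8.57 CPM in the libraries of the 4 populations in that order, so that T-bet int cells were highest. The fl/fl T-bet high libraries were at 35.3, 50.1, 88.0 and 25.0 CPM and the T-bet int libraries at 12.9, 26.8, 12.4 and 6.33 CPM, which overlap, but T-bet high exceeded T-bet int within each of the 4 shared libraries. The fl/fl CD122-T-bet- libraries were at 0, 0, 17.8 and 12.2 CPM and the CD122+T-bet- libraries at 0, 0, 0 and 10.6 CPM. Cd244 was found in at most 9.82% of the cells of a group at equal depth.

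Cd160 (chromosome 3, 96798763 to 96829351, minus strand) was low in CD122-T-bet- libraries, at 8.27 and 16.1 CPM in the TBGR mouse and at 9.70, 18.6, 22.2 and 6.10 CPM in the fl/fl mouse. It was at 184 and 223 CPM in TBGR CD122+T-bet- libraries, at 244 and 266 CPM in T-bet int libraries and at 129 and 51.4 CPM in T-bet high libraries, where it was below both other CD122+ populations. The fl/fl CD122+ libraries overlapped, at 157, 147, 266 and 127 CPM in T-bet- cells, 253, 177, 168 and 152 CPM in T-bet int cells and 322, 190, 176 and 142 CPM in T-bet high cells. Within the shared libraries the ratio of T-bet high to T-bet int cells was between -0.09 and 0.35 on the log2 scale.

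Cd7 (chromosome 11, 121036747 to 121039418, minus strand) was at 22.7 and 6.04 CPM in TBGR CD122-T-bet- libraries, at 293 and 470 CPM in CD122+T-bet- libraries, at 809 and 753 CPM in T-bet int libraries and at 774 and 381 CPM in T-bet high libraries. The last 2 populations overlapped. Its fl/fl level was 4.85, 4.65, 31.1 and 6.10 CPM in CD122-T-bet- cells and 101, 53.4, 171 and 117 CPM in CD122+T-bet- cells. It was at 317, 298, 367 and 165 CPM in fl/fl T-bet int cells and at 453, 782, 561 and 250 CPM in T-bet high cells, and T-bet high exceeded T-bet int in each shared library. At equal depth 63.9% of TBGR and 62.5% of fl/fl T-bet high cells had a Cd7 transcript, against 3.4% and 1.7% of CD122-T-bet- cells.

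Of the adhesion genes, Amica1 (listed as Jaml, chromosome 9, 45079183 to 45108534, plus strand) had no transcript in either TBGR CD122-T-bet- library, where a level of up to 3.06 CPM would go unseen. It was at 86.4 and 60.5 CPM in TBGR CD122+T-bet- libraries, at 130 and 188 CPM in T-bet int libraries and at 149 and 94.2 CPM in T-bet high libraries. Its fl/fl level was 0, 13.9, 17.8 and 0 CPM in CD122-T-bet- cells and 87.6, 125, 90.2 and 84.9 CPM in CD122+T-bet- cells. The fl/fl T-bet int libraries, at 112, 104, 68.4 and 50.6 CPM, and the T-bet high libraries, at 85.7, 130, 93.5 and 91.8 CPM, overlapped with these.

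Cdh1 (chromosome 8, 106603351 to 106670246, plus strand) and Styk1 (chromosome 6, 131299142 to 131353597, minus strand) were found almost wholly in T-bet high cells, and mostly in those of the TBGR mouse. Cdh1 was at 153 and 137 CPM in the TBGR T-bet high libraries, against 0 to 2.01 CPM in the other 6 TBGR libraries. Styk1 was at 195 and 116 CPM there, against 0 to 4.13 CPM. The fl/fl T-bet high libraries had Cdh1 at 5.04, 40.1, 33.0 and 25.0 CPM and Styk1 at 5.04, 5.01, 5.50 and 8.34 CPM. Elsewhere in that mouse Cdh1 was at 0 to 6.70 CPM and Styk1 at 0 to 6.33 CPM. Both genes were absent from 9 of the 20 tables, which list a gene only where it had a transcript. At equal depth Cdh1 was found in 20.4% of TBGR and 4.5% of fl/fl T-bet high cells, and Styk1 in 23.1% and 0.9%.

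**Figure D3:**
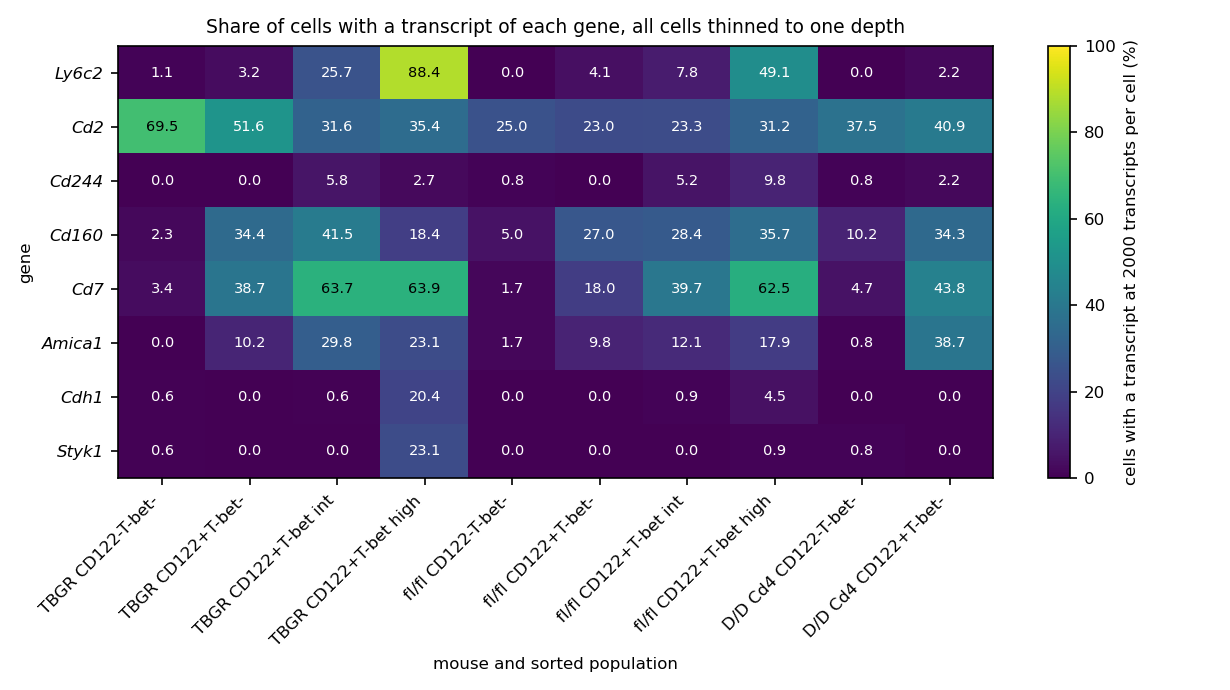
Share of cells (%) with at least 1 transcript of each gene, by mouse and sorted population, after every cell was thinned to 2000 transcripts. Across the TBGR populations the row of Cd2 falls from 69.5% to 31.6% in T-bet int cells and is at 35.4% in T-bet high cells. The row of Ly6c2 goes from 1.1% to 88.4% there, and Cdh1 and Styk1 are above 5% in TBGR T-bet high cells alone.

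A gene was counted as higher or lower in a step between populations when the log2 ratio, less the median ratio of all genes with at least 20 transcripts in both groups together, was at least 1 or at most -1 and no library of one group overlapped with the other. For populations that shared libraries, as in the fl/fl mouse, a ratio of the same sign within every library took the place of the second condition. The folds and log2 ratios printed are those before that median was taken off. The median was 0.26, -0.02 and -0.09 in the steps of the TBGR mouse, 0.48, 0.03 and -0.18 in those of the fl/fl mouse, 0.13 in the D/D Cd4 mouse, and 0.18 and 0.45 between the D/D Cd4 and fl/fl mice in CD122+ and CD122- cells. In the step that gains CD122, from CD122-T-bet- cells to those with CD122 alone, 4 of the 8 genes were higher and 1 was lower in the TBGR mouse, where 9.8% of 9262 genes were higher and 6.16% lower. These were all 5 that reached the minimum, since Cd244, Cdh1 and Styk1 had 1 to 3 transcripts in both groups together. Cd160 was 15.9-fold higher (interval 9.35 to 32.4) and Cd7 25.5-fold higher (15.6 to 48.5). Amica1 was at least 19.4-fold higher by the lower limit of its interval, with 109 transcripts against 0. Ly6c2 was 5.82-fold higher (2.08 to 34.2) on 30 against 3 transcripts, and without CD122+T-bet- library 1 its log2 ratio of 2.54 became 1.94 and was no longer counted. Without CD122-T-bet- library 1 or 2 that ratio was 1.56 or 4.33, that of Cd7, 4.67, was 5.74 or 3.99 and that of Amica1, 7.19, was 6.21 or 6.17. Cd2 was 1.95-fold lower (1.74 to 2.18), a log2 ratio of -0.96 that is under the threshold before the median is taken off. With every cell thinned to 2000 transcripts the log2 ratio of Ly6c2 was 1.83 and was not counted, and that of Amica1 was 5.33. With 5 transcripts added to each sum they were 1.55 and 3.93, and without the top cell of each library that of Cd160 went from 3.99 to 4.64.

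The same step in the fl/fl mouse gave 3 genes of 4 that reached the minimum, all higher, where 4.45% of 6790 genes were higher and 4.36% lower. Cd160 was 11.8-fold higher (6.82 to 24.4), Cd7 8.5-fold higher (4.59 to 19.2) and Amica1 10.8-fold higher (5.30 to 29.5), each higher within all 4 shared libraries. Without library 3 the log2 ratio of Cd7 went from 3.09 to 3.83 and that of Amica1 from 3.43 to 4.11. Ly6c2 had 14 against 0 transcripts, at least 3.55-fold higher by the lower limit of its interval, and was under the minimum of 20. Cd2 did not differ beyond the spread between libraries (log2 ratio -0.17, interval -0.55 to 0.20). In thinned cells Amica1 had a log2 ratio of 2.51 and was not counted, Cd160 went from 3.57 to 2.81 and Cd7 to 3.72. Without the top cell of each library Cd7 was at 4.15 and Amica1 at 4.16, and with 5 transcripts added Amica1 was at 2.83.

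In the step from CD122+T-bet- to T-bet int cells 4 of the 6 genes that reached the minimum were higher and none lower in the TBGR mouse, where 3.77% of 9461 genes were higher and 6.69% lower. Ly6c2 was 10.04-fold higher (6.97 to 15.4), Cd244 16.6-fold (5.27 to 175) on 36 against 2 transcripts, Cd7 2.08-fold (1.87 to 2.31) and Amica1 2.13-fold (1.69 to 2.72). Cd7 was no longer counted without CD122+T-bet- library 1 (log2 ratio 0.73), nor was Amica1 without CD122+T-bet- library 2 (0.87) or T-bet int library 2 (0.81). Without CD122+T-bet- library 1 the log2 ratio of Ly6c2 went from 3.33 to 3.93. Ly6c2 was the 1 gene of 5 counted in the fl/fl mouse, at 5.74-fold (3.35 to 11.2), where 0.548% of 7119 genes were higher and 0.506% lower. Cd7 had a log2 ratio of 1.41 (1.05 to 1.79) with overlapping libraries, and was counted without fl/fl library 3 of the T-bet- cells (1.78) or library 4 of the T-bet+ cells (1.54). Thinning the cells left Cd244 (log2 ratio 4.51) and Cd7 (0.93) uncounted in the TBGR mouse and Ly6c2 (1.90, from 2.52) in the fl/fl mouse, and took Amica1 from 1.09 to 1.85 in the TBGR mouse. The TBGR ratio of Cd244, 4.05, was 2.73 with 5 transcripts added and 6.18 without the top cell of each library.

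In the step from TBGR T-bet int to T-bet high cells 3 of the 8 genes, all of which reached the minimum, were higher and 2 lower, where 9.11% of 8564 genes were higher and 10.3% lower. Ly6c2 was 9.19-fold higher (8.07 to 10.5), Cdh1 128-fold (33.5 to 7604) on 104 against 1 transcripts and Styk1 146-fold (38.4 to 8690) on 119 against 1. Without T-bet high library 1 the log2 ratio of Ly6c2 went from 3.20 to 2.54. That of Cdh1, 6.997, was 5.97 or 7.61 and that of Styk1, 7.19, was 6.16 or 7.81 without T-bet int library 1 or 2. In thinned cells Cdh1 was at 4.94. With 5 transcripts added Cdh1 was at 5.06 and Styk1 at 5.24, and without the top cell of each library they were at 8.42 and 8.64. Cd160 was lower, with a log2 ratio of -1.29 (interval -1.68 to -0.93), which became -0.97 and uncounted without T-bet high library 2, and -2.25 without library 1. Cd244 was lower, with a log2 ratio of -1.86 (-3.68 to -0.62) on 5 against 36 transcripts, which was -1.16 with 5 transcripts added and not counted in thinned cells (-1.004).

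The last step in the fl/fl mouse gave 4 genes of 7 that reached the minimum, all higher, where 3.04% of 6908 genes were higher and 3.13% lower. Ly6c2 was 8.54-fold higher (6.89 to 10.8), Cd244 3.06-fold (1.65 to 6.27), Cd7 1.85-fold (1.58 to 2.18) and Cdh1 6.43-fold (2.13 to 38.7) on 18 against 3 transcripts. The libraries of the 2 populations overlapped for Cd244, Cd7 and Cdh1, which were counted by their ratios within libraries. Cd7, with a log2 ratio of 0.89, is under the threshold before the median is taken off and was not counted without library 2 (0.62). Cdh1 was not counted without any 1 of the 4 libraries, which leaves it under 20 transcripts, with log2 ratios of 2.25 to 3.11. Cd2 (log2 ratio 0.70) was higher in 4 of 4 libraries but under the threshold, and was counted without the first (0.83) or the third (0.82) of them. Styk1 had 4 against 2 transcripts. In thinned cells Cd244 (log2 ratio 0.87), Cd7 (0.75) and Cdh1 (1.93) were not counted, nor was Cd7 by the mean over cells (0.72). The log2 ratio of Cdh1, 2.68, was 3.58 by the mean over cells and 1.81 with 5 transcripts added, and it was not counted without the top cell of each library (3.11) or in cells of at least 3000 transcripts (2.56).

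**Figure D4:**
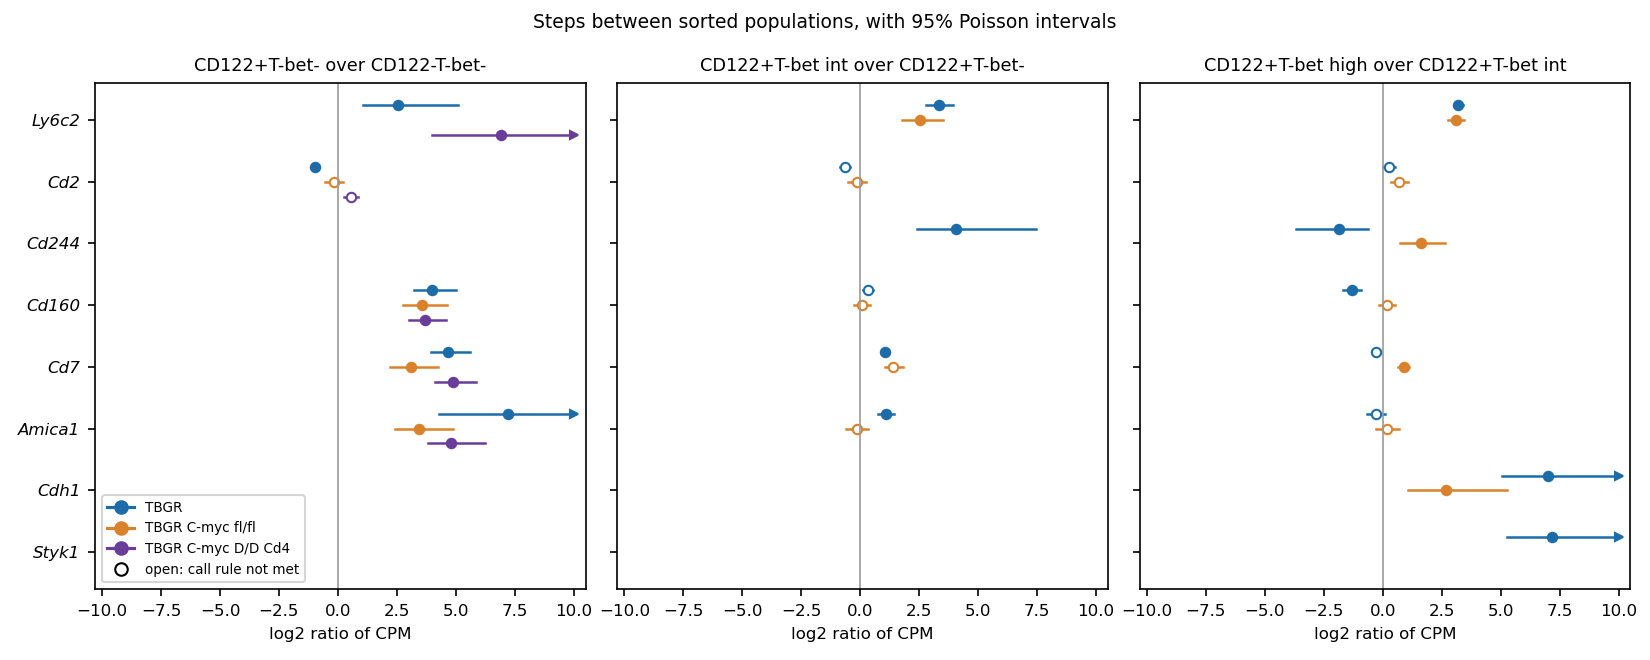
Log2 ratio of CPM with its 95% Poisson interval for each gene in the 3 steps between sorted populations, by mouse. Filled points met the rule for a difference, open points did not, arrows mark intervals that run past the axis, and genes under 20 transcripts in both groups together are not drawn; Ly6c2 lies to the right of 0 wherever it is drawn, and Cd244 goes in opposite directions in the TBGR (-1.86) and fl/fl (1.61) mice in the step to T-bet high cells.

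Comparisons of the fl/fl with the TBGR mouse within a population were added after the levels had been seen, and genotype, age, mouse and libraries cannot be told apart in them. In T-bet high cells Cd244 was 6.69-fold higher (2.84 to 23.7) and Cd160 2.08-fold higher (1.57 to 2.80) in the fl/fl mouse, where 5.98% of 7111 genes were higher and 12.6% lower. Cdh1 had a log2 ratio of -2.49 (-3.33 to -1.79) and Styk1 of -4.72 (-6.78 to -3.49), so that 4 of the 8 genes, all of which reached the minimum, differed. In the other populations 6, 5 and 3 of the genes reached it, in the order in which they follow. Without TBGR T-bet high library 1 the log2 ratio of Cd160 went from 1.05 to 2.02. Ly6c2 had a log2 ratio of -1.03 (-1.17 to -0.89) with overlapping libraries. Cd7 was lower in fl/fl T-bet int cells, at -1.42 (-1.63 to -1.22), where 8.81% of 8480 genes were lower and 3.66% higher, and was uncounted without fl/fl library 4 (-1.28) or TBGR library 1 (-1.37). It was also lower in CD122+T-bet- cells, at -1.77 (-2.13 to -1.45), where 11.9% of 8904 genes were lower and 3.1% higher, and was uncounted without TBGR library 2 (-1.41). Also in CD122+T-bet- cells, Cd2 (log2 ratio -1.33) was under the threshold with all libraries and was counted without fl/fl library 3 (-1.48) or TBGR library 1 (-1.40), as was Amica1 (0.42) without TBGR library 1 (0.70). Cd2 was lower in CD122-T-bet- cells, at -2.12 (-2.40 to -1.86), where 12.8% of 7683 genes were lower and 3.66% higher. In thinned cells the calls of Cd160 (0.998) and Cd244 (1.75) in T-bet high cells and of Cd7 (-1.06) in T-bet int cells were lost. Those of Cd160 without the top cell of each library (1.014) and of Cd7 by the mean over cells (-1.15) were lost as well. The T-bet high ratio of Cd244, 2.74 on the log2 scale, was 2.05 with 5 transcripts added, that of Styk1 was -3.77 with 5 added and -7.69 without the top cells, and that of Cdh1 was -3.09 without them. The median ratio of all genes was between -0.64 and -0.39 in these 4 comparisons.

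The D/D Cd4 mouse was compared with the fl/fl mouse of the same age, 1 mouse against 1. In CD122+T-bet- cells 5 of the 8 genes reached the minimum, of which 2 were higher in the D/D Cd4 mouse and none was lower, where 10.3% of 7312 genes were higher and 7.17% lower. Cd7 was at 467 and 550 CPM in the D/D Cd4 libraries and 4.67-fold higher (3.68 to 6.02). Amica1 was at 235 and 301 CPM and 2.74-fold higher (2.10 to 3.64), and was found in 38.7% of these cells at equal depth against 9.8% in the fl/fl mouse. Its log2 ratio of 1.45 was 2.55 in thinned cells. Cd160 was at 270 and 286 CPM, above all fl/fl CD122+T-bet- libraries, with a log2 ratio of 0.61 (0.30 to 0.94) that was under the threshold. Cd2, at 340 and 311 CPM, was above all of them too, with a log2 ratio of 1.13 (0.80 to 1.47) that was under the threshold once the median of all genes, 0.18, was taken off. Without D/D Cd4 library 2 or fl/fl library 3 it was 1.201 or 1.28 and was counted.

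Cd244 was at 12.7 and 12.5 CPM in these D/D Cd4 libraries, on 9 transcripts against 1 in the fl/fl mouse, too few to be compared. Cdh1 and Styk1 had no transcript in D/D Cd4 CD122+T-bet- cells, where up to 4.19 CPM would go unseen. Ly6c2 was at 156 and 17.4 CPM in the 2 D/D Cd4 libraries, and the lower of these lay within the range of the fl/fl libraries. It had 56 transcripts in 6 of 137 cells, 37 of them (66.1%) in 1 cell of library 1. Without that cell its level was 26.6 CPM, and 38.5 CPM in library 1. That cell held 3466 transcripts in all, among them 1 of Tbx21, 5 of Ccl5 (a chemokine of cytotoxic cells), 4 of Gzmb (granzyme B), 4 of Cd3e, 1 of Fcgr3 and none of Il2rb or Klrb1c. The log2 ratio of Ly6c2 to the fl/fl mouse was 2.04, and was not counted. It was 3.04 and counted without D/D Cd4 library 2, and -0.04 without D/D Cd4 library 1.

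In CD122-T-bet- cells 3 of the 8 genes (Cd2, Cd160 and Cd7) reached the minimum between the D/D Cd4 and fl/fl mice and none of them was counted, where 4.82% of 6893 genes were higher and 1.62% lower. Cd2 was at 217 and 221 CPM in the D/D Cd4 libraries, Cd160 at 26.8 and 17.1 CPM, Cd7 at 23.4 and 12.9 CPM and Amica1 at 13.4 and 6.43 CPM. Each of these overlapped with the fl/fl libraries. Ly6c2 was at 0 in both libraries, with an upper limit of 3.92 CPM.

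Within the D/D Cd4 mouse 4 of the 5 genes that reached the minimum were higher in CD122+T-bet- than in CD122-T-bet- cells and none was lower, where 11.5% of 7425 genes were higher and 9.54% lower. Cd160 was 13.0-fold (8.02 to 23.8), Cd7 29.2-fold (17.5 to 57.3) and Amica1 27.8-fold (14.2 to 74.99) higher. Amica1 had a log2 ratio of 4.80 with all libraries and of 4.18 without CD122-T-bet- library 2, 5.89 in thinned cells, 4.15 with 5 transcripts added and 5.73 without the top cell of each library. The log2 ratio of Cd160, 3.70, was 2.51 in thinned cells. Ly6c2 was at least 15.7-fold higher by the lower limit of its interval, with a log2 ratio of 6.92. It was not counted without CD122+T-bet- library 1 (4.84) or without its top cell in each library (4.97), both of which left fewer than 20 transcripts. Without CD122+T-bet- library 2 the ratio was 7.91, and without CD122-T-bet- library 1 or 2 it was 6.20 or 5.56. In thinned cells it was 5.26, and with 5 transcripts added 3.704. The log2 ratio of Cd2 in this step was 0.56 (0.27 to 0.86) in the D/D Cd4 mouse, which was not counted, -0.17 with overlapping libraries in the fl/fl mouse of the same age and -0.96 in the older TBGR mouse, and the differences between the mice were not tested.

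The other genes of the pathways were taken from lists written with earlier results of these data known. Of the SLAM family and its adaptors, 10 of 12 listed genes were in the tables and 7 passed the minimum in the step from TBGR T-bet int to T-bet high cells, 2 of them higher and 1 lower, where 9.11% of all genes were higher and 10.3% lower. Slamf7, which encodes the NK receptor CRACC, was at 149 CPM in T-bet high and 14.7 CPM in T-bet int cells, and Ly9 at 216 and 101 CPM. Slamf6, which encodes the SLAM receptor Ly108, was at 9.93 and 172 CPM. Slamf7 was higher in the fl/fl mouse as well (55.7 and 7.05 CPM) and Slamf6 lower (18.6 and 65.8 CPM), 1 gene in each direction of 7, where 3.04% of all genes were higher and 3.13% lower. These shares hold for the following lists in the same steps. Cd48, which encodes a ligand of both CD2 and CD244, was higher in CD122+T-bet- than in CD122-T-bet- cells, at 138 and 54.1 CPM in the TBGR mouse and 144 and 50.6 CPM in the fl/fl mouse. It was the 1 gene of the list that was higher in that step, of 7 tested in the TBGR and 6 in the fl/fl mouse, where 9.8% and 4.45% of all genes were higher. The 1 lower gene was Slamf1 in the TBGR mouse, at 17.7 and 32.6 CPM. In the D/D Cd4 mouse 2 of 7 were higher in this step, Cd48 at 124 and 39.2 CPM and Fyn at 294 and 107 CPM, and Sh2d1a was lower, at 55.8 and 141 CPM, where 11.5% of all genes were higher and 9.54% lower. Between the D/D Cd4 and fl/fl mice 3 of 7 were higher in CD122+T-bet- cells (Cd84, Slamf1 and Slamf6) and 2 of 7 in CD122-T-bet- cells (Ly9 and Sh2d1a), with none lower, where 10.3% and 4.82% of all genes were higher. In the step to T-bet int cells Cd48 and Slamf7 were higher and Slamf1 lower of 8 in the TBGR mouse, where 3.77% of all genes were higher and 6.69% lower, and 0 of 6 were counted in the fl/fl mouse. Sh2d1a, which encodes SAP, was at 38.3 and 39.5 CPM in TBGR T-bet high and T-bet int cells and was not counted.

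Of the Ly6 family, 7 of 8 listed genes were in the tables and 2 passed the minimum in the step to TBGR T-bet high cells, both higher, where 9.11% of all genes were higher. In the step that gains CD122, Ly6a was higher of 2 tested in the TBGR mouse, at 74.2 against 10.2 CPM, where 9.8% of all genes were higher and 6.16% lower. In the fl/fl mouse Ly6c1 (1 against 19 transcripts) and Ly6d (0 against 27) were lower of 4, where 4.45% of all genes were higher and 4.36% lower. In the D/D Cd4 mouse Ly6a was higher, at 72.6 against 2.61 CPM, and Ly6e and Ly6k were lower, which makes all 3 tested, where 11.5% of all genes were higher and 9.54% lower. Neither of the 2 genes tested differed in the step to T-bet int cells in the TBGR or fl/fl mouse, or in CD122+T-bet- cells of the D/D Cd4 over the fl/fl mouse. In CD122-T-bet- cells Ly6k was higher in the D/D Cd4 mouse and Ly6c1 and Ly6d were lower, of 4, where 4.82% of all genes were higher and 1.62% lower. Ly6a, which encodes Sca-1, was at 267 CPM in T-bet high and 51.8 CPM in T-bet int cells, and Ly6e at 2730 and 1208 CPM. Neither was counted in the fl/fl mouse, with Ly6a at 67.2 and 64.7 CPM. Of the cadherin partners, 1 of 4 was higher in T-bet high cells in either mouse. It was Itgae, at 333 and 99.8 CPM in the TBGR mouse and 116 and 43.5 CPM in the fl/fl mouse. In the step that gains CD122, 2 of 5 cadherin partners were higher in the TBGR mouse, where 9.8% of all genes were. This was 1 of 5 in the fl/fl mouse, where 4.45% were, and 2 of 5 in the D/D Cd4 mouse, where 11.5% were. Between the D/D Cd4 and fl/fl mice 1 of 5 was higher in CD122+T-bet- cells, where 10.3% of all genes were. In CD122-T-bet- cells 0 of 2 were. In the step to T-bet int cells 0 of 5 were counted in the TBGR and fl/fl mice. The genes of ligands and of their other receptors were mostly too low, and the 1 that passed, Btla, was at 31.2 and 33.3 CPM in TBGR T-bet high and T-bet int cells and lower in fl/fl T-bet high cells, at 10.01 and 27.04 CPM. Of the NK programme, 9 of 13 genes were higher and none lower in TBGR T-bet high cells, among them Klrk1 (NKG2D) at 555 against 7.74 CPM and Gzmb at 965 against 16.2 CPM. Of the 11 that passed in the fl/fl mouse 9 were higher and none lower, with Klrd1 (CD94) at 346 against 41.1 CPM. In the step that gains CD122, 4 of 5 were higher in the TBGR mouse, 4 of 6 in the fl/fl mouse and 6 of 6 in the D/D Cd4 mouse, where 9.8%, 4.45% and 11.5% of all genes were higher. In the step to T-bet int cells 9 of 10 were higher in the TBGR mouse and 2 of 9 in the fl/fl mouse, where 3.77% and 0.548% of all genes were. Between the D/D Cd4 and fl/fl mice 2 of 6 were higher in CD122+T-bet- cells, where 10.3% of all genes were. In CD122-T-bet- cells 0 of 2 were higher, where 4.82% of all genes were. No gene of the NK programme was lower in any of these comparisons.

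The marker lists of other cell types were summed in the same cells. Of the epithelial markers, Krt5, Krt8, Krt18, Krt14 and Foxn1 had no transcript in TBGR T-bet high cells, where Cdh1 was highest, and the whole list of 7 genes had 2 transcripts there (2.84 CPM, 2.12 CPM in the lower library), against 1.18 to 26.5 CPM over all groups. Among thinned TBGR T-bet high cells, neither the 30 with a Cdh1 transcript nor the 117 without held any of them, so this split does not tell these cells apart. Of the monocyte and macrophage markers, 4 of 8 genes in the tables were seen in TBGR T-bet high cells at 254 CPM in sum, against 54.9 to 280 CPM over all groups, highest in TBGR CD122+T-bet- cells. Csf1r, Itgam, S100a8 and S100a9 had no transcript in TBGR T-bet high cells. In thinned T-bet high cells the list was at 304 CPM in the 130 TBGR cells with Ly6c2 and 176 CPM in the 17 without. In the fl/fl mouse it was at 182 CPM in the 55 cells with Ly6c2 and 237 CPM in the 57 without. The NK list, with 4 of 5 genes in the tables, was at 17.0 CPM in TBGR and 48.6 CPM in fl/fl T-bet high cells, and at 5.23 to 29.3 CPM elsewhere. The list for NKT cells, which holds Klrb1c, was at 630 CPM in TBGR T-bet high cells, against 23.5 to 113 CPM elsewhere. Most of this was Klrb1c, which alone was at 613 and 463 CPM in the 2 TBGR T-bet high libraries, where the list was at 681 and 527 CPM. The gd T-cell list was at 1336.5 CPM there, with 2 of 5 genes seen and Trdc at 0, against 424 to 1082 CPM elsewhere. The part of these cells in the results was not tested beyond these values.

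At equal depth TBGR T-bet high cells held a median of 3 of the 8 genes and 55.1% held 3 or more, against 34.5% of T-bet int, 14.5% of CD122+T-bet- and 0% of CD122-T-bet- cells. Of the fl/fl T-bet high cells 36.6% held 3 or more. Cdh1 was found in 8 of 34 TBGR T-bet high cells with Styk1 (23.5%) and in 19.5% of those without. Styk1 was found in 44.4% of cells with Cd160 and in 18.3% of cells without. In fl/fl T-bet high cells Cd2 was found in 25 of 55 cells with Ly6c2 (45.5%) and in 10 of 57 without (17.5%). Cd160 was found in 36.4% and 35.1% of these, Cd7 in 56.4% and 68.4% and Cdh1 in 1.82% and 7.02%. These shares are over cells of 1 mouse each and were not tested.

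Across the 28 sums of library and population, the genes most like each of the 8 were sought by the Pearson correlation of log2(CPM + 10) among 8141 genes. The sums share mice and sorted populations, so these values are descriptions. Nearest to Ly6c2 were Gm19585 (0.96), AW112010 (0.95) and Cxcr3 (0.94), the last of which encodes a chemokine receptor. Cdh1 was nearest to Klrc1 (0.95), Klrk1 (0.92) and Klrc2 (0.90), and Styk1 to Klrc1 (0.96), Klre1 (0.93) and Klrc2 (0.90), all genes of NK lectin-type receptors. Cd7 was nearest to Il2rb (0.92), Prr13 (0.92) and Coro2a (0.90), and Amica1 to Coro2a (0.92), Il2rb (0.90) and Klf2 (0.90). Cd160 was nearest to Sept11, Prr13 and Klf2 (0.90 each). Cd244 was nearest to Ccl5 (0.76), Klra7 (0.75) and Klrd1 (0.71), and Cd2 to Il4ra (0.92), Dgka (0.90) and Tecpr1 (0.89). By Spearman's correlation of CPM instead, none of the 3 nearest genes of Cd7, Cdh1 and Styk1 was kept, 1 was kept for Cd244 and Amica1, and 2 were kept for Ly6c2, Cd2 and Cd160. Among the 8 genes, Cd160 with Amica1 (0.92) and Cdh1 with Styk1 (0.90) were the most alike pairs, and Cd2 was between -0.16 and 0.12 with every other member.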

How the data were processed

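Single cells were sorted into wells and sequenced by CEL-Seq2, which tags the 3' end of each transcript with a cell barcode and a molecular identifier. The submitters' processing notes name bcl2fastq 2.17.1.14 and BWA 0.6.2-r126, and the study's methods give alignment to GENCODE VM9 transcripts in the sense direction without reads that mapped to several places. The deposited values are estimated counts, that is expected counts of transcripts which the authors derived from molecular identifiers by binomial statistics, without other normalization. They were rounded in each cell and then summed over cells. Each deposited table lists a gene only where it had a transcript, so that an absent gene was taken as 0, and 0 other columns of per-sample values were left out. The population of each well came from the file that describes the wells of each library.

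The 8 members and all gene lists were chosen with earlier results of these data known. Cells with at least 2000 transcripts outside mitochondrial genes and spike-ins were used, which left out 507 cells. No passing cell had more than 2% of its transcripts from Kcnq1ot1, the limit in the study's methods, so that limit changed nothing. Each library used 96 of 192 barcodes, and 10 of the 20 libraries used barcodes 1 to 96. No doublet caller was run because each well received 1 sorted cell. Ratios are log2 ratios of CPM with 0.5 transcripts added to each sum. A gene was counted as different when its ratio, less the median ratio over genes that had 20 or more transcripts in both groups together, was at least 1 or at most -1 and no library of one group lay within the range of the other. Where both populations shared libraries, the ratio had to have the same sign in each library instead, and the libraries could overlap. Random thinning to 2000 transcripts gave shares at equal depth. The text names the 8 members, for each the 3 genes with the highest correlation of log2(CPM + 10) among genes with at least 100 transcripts, and genes of the fixed lists with at least 20 transcripts.

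No test could be made with 1 mouse per genotype. Intervals cover counting error only, and the highest level that a count of 0 allows was taken as that of 3 transcripts. The alternatives were thinned cells, a mean over cells, cell minimums of 1000 and 3000, 5 transcripts added, no median taken off, gene minimums of 100 and none, the deepest 5% of cells left out, and each library left out. The removal of the top cell of each member and the comparison of the fl/fl with the TBGR mouse were chosen after seeing the data. The ratio and call steps were tested on simulated data for the step from TBGR T-bet int to T-bet high cells, where all 200 of 200 changed genes among 8470 had the right direction. Python 3.11.15 was used with numpy 2.4.6, scipy 1.17.1, pandas 2.3.3, Biopython 1.88 and matplotlib 3.10.9.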

Additional observations from a re-analysis of the deposited data

Results flagged for a closer look

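In the fl/fl mouse 7 of the 29 sets of 4 libraries of a gene and population with a transcript held 1 library that stood apart, by the gap to its nearest neighbour as a share of the range of the 4. For values that vary smoothly chance gives about 1 in 20, which does not hold for sets of few transcripts. The T-bet int library with Ly6c2 at 193 CPM had a gap of 0.858 of the range, the CD122-T-bet- library with Cd7 at 31.1 CPM one of 0.945 and the CD122+T-bet- library with Amica1 at 125 CPM one of 0.865. The other 4 sets rest on at most 1 transcript per library. The T-bet high library with Styk1 at 8.34 CPM, with a gap of 0.853, had 1 transcript like each of the other 3 and a smaller total. Cd244 at 10.6 CPM and both Cdh1 and Styk1 at 4.45 CPM were a single transcript in 1 of the 4 CD122+T-bet- libraries, which fixes the gap at 1.

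Cd2 and Cd244 went in opposite directions in mice of different genotype, and neither difference was tested. In the step that gains CD122 among T-bet- cells the log2 ratio of Cd2 was 1.52 greater in the D/D Cd4 mouse (0.56) than in the TBGR mouse (-0.96), without overlap of libraries in either, and it was -0.17 with overlapping libraries in the fl/fl mouse, which had the age of the D/D Cd4 mouse. The log2 ratio of Cd244 between T-bet high and T-bet int cells was 3.47 greater in the fl/fl mouse (1.61) than in the TBGR mouse (-1.86). The fl/fl libraries of these populations overlapped, with the same sign within each shared library, and the TBGR libraries did not overlap.

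The 1920 cell barcodes labelled as empty, 96 in each library of 96 sorted cells, held 51080 transcripts, with a median of 17.5 per barcode. Among them were 15 transcripts of Ly6c2, 23 of Cd2, 6 of Cd160, 11 of Cd7 and 2 of Amica1, and none of Cd244, Cdh1 or Styk1. The 57 transcripts of the members were 0.52% of their 10883 transcripts in passing cells. The library with the most such transcripts, TBGR T-bet high library 2, had 11858 of them with a median of 105.5 per barcode, 6 of Ly6c2 and 7 of Cd7 among them. The source of the transcripts at these barcodes was not tested.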

How the results depend on the processing

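Of 1480 log2 ratios of the members under the alternatives, 1356 moved by less than the spread between libraries, 124 moved by more and 0 changed sign after a call. The 35 ratios that were counted as different, of 104, gave 477 values under alternatives, all with their sign kept, of which 445 were still counted. A ratio moved by over 1.5 times in 61 of the 477. These values do not cover the gene minimums of 100 and none or the setting with no median taken off. Calls lost under those settings, as with the minimum of 100 below, are thus not reflected in the 445. The number of members counted changed by more than 1.5 times in these cases, and apart from thinning, which leaves fewer transcripts, the cause was not tested. With every cell thinned to 2000 transcripts it went from 4 to 2 in the TBGR step to T-bet int cells, from 1 to 0 in the same fl/fl step, from 4 to 1 in the fl/fl step to T-bet high cells and from 4 to 2 between the fl/fl and TBGR T-bet high cells. A minimum of 100 transcripts took it from 3 to 1 in the fl/fl step that gains CD122 and from 4 to 2 in the fl/fl step to T-bet high cells. In the fl/fl step to T-bet int cells it was 2 in place of 1 with a minimum of 1000 transcripts per cell or without the top cell of each gene. Between the D/D Cd4 and fl/fl CD122-T-bet- cells it was 1 in place of 0 with no minimum of transcripts. Between the fl/fl and TBGR CD122+T-bet- cells it was 2 in place of 1 by the mean over cells, with 5 transcripts added, with no median taken off, with no minimum and without the top cell, and between their T-bet int cells it was 3 in place of 1 without the top cell.

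Without each library in turn the number of members counted was 4 to 5 in the TBGR step that gains CD122, 3 to 4 in the step to T-bet int and 4 to 5 in the step to T-bet high cells. In the fl/fl mouse these ranges were 3 to 3, 1 to 2 and 2 to 4, and in the D/D Cd4 mouse the step that gains CD122 gave 3 to 4. Between the D/D Cd4 and fl/fl mice the range was 2 to 4 in CD122+T-bet- and 0 to 0 in CD122-T-bet- cells. Between the fl/fl and TBGR mice CD122-T-bet- cells gave 1 to 1, CD122+T-bet- cells 0 to 3, T-bet int cells 0 to 1 and T-bet high cells 4 to 4. No paired analysis was possible because no comparison was tested, and replicate numbers only name libraries; ratios within the shared libraries are given instead. A gene without a transcript may have a level of up to 2.04 to 4.29 CPM, depending on the group, so that absence of Cdh1 and Styk1 below that was not detectable.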
